A study of Mus musculus with 16 samples.

Results

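The genes of choline oxidation, betaine use and methyl transfer were followed here as a set of 10: Chka, Pemt, Chdh, Aldh7a1, Bhmt, Bhmt2, Dmgdh, Sardh, Mat1a and Gnmt. The set was chosen by name with earlier results of these data known, so any excess over all genes is a description and not a test. All 10 were found among the 25006 genes of the count table, and all 10 were among the 13180 genes with enough reads to test. Poly(A) RNA was counted in livers of C57BL/6 mice, an inbred laboratory strain, in 4 groups of 4 libraries. The groups were a fast food slurry with antibiotic drinking water, a chow slurry with antibiotic drinking water, a fast food slurry with control drinking water and a chow slurry with control drinking water. Every mouse received 1 dose of its slurry by gavage and its liver was taken 4 h later. The antibiotics, their doses, the length of treatment, and the age and sex of the mice are not named by the labels. The comparisons ask how hepatic transcripts differ after the meals, and whether that difference depends on the water. The labels do not say that each replicate is a separate mouse. If it is not, the p-values measure only the spread between these samples.

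Choline reaching the liver has a pair of main fates. It can be phosphorylated and built into phosphatidylcholine, or it can be oxidised in mitochondria to betaine, which then gives a methyl group to homocysteine to remake methionine. Methionine becomes S-adenosylmethionine, the methyl donor for most methylation reactions, and the methyl groups left on dimethylglycine and sarcosine pass to the folate pool. Gut bacteria also use choline from food, converting it to trimethylamine.

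Among the members, Bhmt, Bhmt2 and Dmgdh are neighbours on chromosome 13, and the promoters of Dmgdh (with which that of Bhmt2 overlaps) and Bhmt are shown because the 3 genes were higher in chow-fed livers with antibiotic water. The promoter of Chdh is shown beside them because Chdh was lower there. Each sequence is the RefSeq window (GRCm38.p6) from 250 bases before to 50 bases after an annotated start, 300 bases in all, 5′ to 3′ on the gene's own strand. Capitals mark GC boxes (GGGCGG, or CCGCCC where it lies on the other strand) in Dmgdh and Chdh. In Bhmt they mark the nuclear receptor motif AGGTCA and the CCAAT box (CCAAT or ATTGG).
Dmgdh promoter, chr13:93674186-93674485, plus strand: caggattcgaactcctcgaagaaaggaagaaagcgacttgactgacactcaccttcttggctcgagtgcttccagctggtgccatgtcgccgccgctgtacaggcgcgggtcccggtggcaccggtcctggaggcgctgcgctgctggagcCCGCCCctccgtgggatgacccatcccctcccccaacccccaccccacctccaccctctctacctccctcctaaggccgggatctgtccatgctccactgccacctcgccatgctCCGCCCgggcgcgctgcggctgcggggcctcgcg
Bhmt promoter, chr13:93637709-93638008, minus strand: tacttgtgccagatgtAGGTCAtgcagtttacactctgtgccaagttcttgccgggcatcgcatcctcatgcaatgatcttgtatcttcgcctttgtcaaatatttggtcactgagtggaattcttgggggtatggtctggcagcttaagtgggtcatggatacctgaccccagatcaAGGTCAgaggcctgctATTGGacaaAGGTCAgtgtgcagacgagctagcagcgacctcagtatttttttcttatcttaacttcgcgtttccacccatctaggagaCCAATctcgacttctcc
Chdh promoter, chr14:30008750-30009049, plus strand, the first of 3 windows for this gene: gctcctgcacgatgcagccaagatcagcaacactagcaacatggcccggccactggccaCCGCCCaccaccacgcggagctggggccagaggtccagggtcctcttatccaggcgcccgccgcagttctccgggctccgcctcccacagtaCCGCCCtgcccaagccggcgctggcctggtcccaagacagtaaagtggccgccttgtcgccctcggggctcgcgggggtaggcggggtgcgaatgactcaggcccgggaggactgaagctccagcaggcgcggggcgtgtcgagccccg
The windows of Dmgdh and Bhmt2 overlap by 233 bases (chr13:93674253-93674485), read in opposite directions, and the shared bases are exact reverse complements. In the GENCODE M21 annotation the starts of Bhmt2 (minus strand) and Dmgdh (plus strand) lie 131 bases apart. Of 11035 protein-coding genes on minus strands, 742 (6.72%) have a plus-strand coding start within 1000 bases upstream. The Dmgdh window held GC boxes at -99 and 17 from the start. The Bhmt2 window held 2, at -40 and -155, which are the same pair of sites in the shared bases. The Chdh window held 2 of its own. Of 32851 mouse promoter windows of the same length, 35.7% held at least 1 GC box and 19.5% held at least 2. The Bhmt window had no GC box but had 3 AGGTCA motifs, at -234, -72 and -47. Of all windows 16.3% had at least 1 such site and 60 (0.183%) had at least 3. It also had 2 CCAAT boxes, and 11.7% of windows had at least 2. G and C made up 68% of the Dmgdh window, 73.7% of the Bhmt2 window, 70.3% of the Chdh window and 48% of the Bhmt window, against a median of 52.7% over all windows. These are matches of letters, on both strands, and no binding was measured.

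Total counts ran from 8954378 to 18954655 per library, and the lowest count of any member in any library was 258, for Chka. Reads like ribosomal RNA, gathered by 4 features, made up 2.45% to 8.42% of counts in 7 libraries and 0.12% to 0.587% in 9. The 7 were 3 of 4 fast food antibiotic libraries, 2 of 4 chow antibiotic libraries, none of the fast food control libraries and 2 of 4 chow control libraries. Acute phase transcripts were highest in chow antibiotic replicate 4 (mean log2 deviation 1.87), fast food antibiotic replicate 2 (1.8) and chow control replicate 2 (0.888). Results are given below with and without these 3 libraries where that changes a call or moves a called value by over 1.5 times. Chow antibiotic replicates 1 (0.804), 2 (0.494) and 3 (-0.0505) came next in score, and the remaining libraries had -1.11 to -0.348. Leaving out the 3 highest therefore does not even out the score between the groups. The hepatocyte markers were high in every library, with summed levels of 115000 to 174000 CPM in fast food antibiotic livers, 181000 to 243000 CPM in chow antibiotic livers, 127000 to 140000 CPM in fast food control livers and 122000 to 152000 CPM in chow control livers. CPM here are counts scaled to the library total and by TMM factors, which correct for differences in composition between libraries.

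Per kilobase of exon, Mat1a was the most abundant member, at 4550 ± 1350 CPM per kb (SD, n = 16), followed by Gnmt at 1310 ± 415. Every library had more Mat1a per kb than any library had Gnmt. Bhmt followed at 450 ± 171, Dmgdh at 253 ± 138, Sardh at 179 ± 30.7 and Bhmt2 at 130 ± 29.6 CPM per kb. Pemt (81.1 ± 15.2) and Aldh7a1 (79.1 ± 11.7) did not differ beyond their spread, with Pemt above Aldh7a1 in 7 of 16 libraries. Across all groups the ranges of neighbours also overlapped from Gnmt down to Pemt. Within libraries, though, Gnmt was above Bhmt, Bhmt above Dmgdh and Bhmt2 above Pemt in 16 of 16, Sardh was above Bhmt2 in 14 and Dmgdh above Sardh in 10. Chdh stood at 23.8 ± 6.72 CPM per kb. Chka, at 2.7 ± 1.58 CPM per kb, was the only member below the median of the tested genes, and the other 9 lay at or above the 90.3 percentile. The length used joins all annotated exons of a gene, and for some members it exceeds the longest coding transcript. It was 12024 against 2549 bases for Chka, 5758 against 2490 for Bhmt and 2104 against 1003 for Pemt. For Bhmt2 both were 2467. The order of members, its ties and the percentiles therefore hold for this length only, and transcript lengths were not tried.

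In mice on antibiotic water, the livers after fast food differed from those after chow at most of these genes. Chdh was higher after fast food, by 1.77-fold, while Dmgdh, Chka, Gnmt, Bhmt2, Mat1a and Pemt were lower, with ratios from 0.479 for Dmgdh to 0.721 for Pemt. By edgeR's quasi-likelihood test with an adjusted p threshold of 0.05 over all 13180 genes, 7 of 10 members changed, 1 higher and 6 lower. The background in this comparison was 13.7% of genes called, 7.78% higher and 5.87% lower. The 4 libraries of each group did not overlap for 5 members, against 14.5% of all genes. The median log2 fold change of the members was -0.50, against 0.03 over all genes. The count was 4 without fast food antibiotic replicate 1 or 3, 3 without fast food antibiotic replicate 4 or chow antibiotic replicate 2, and 0 when only these 8 libraries were fitted. In that last fit 8 members had an unadjusted p under 0.05, for which the share of all genes is not given here. Chdh, Dmgdh and Gnmt kept their calls whichever single library was left out. In the libraries of high rRNA-like share alone (3 fast food and 2 chow) edgeR called no member and 1 gene in all, with Dmgdh at -1.13 and Chdh at 0.88 on the log2 scale. The low-share side holds 1 fast food antibiotic library and could not be fitted for this comparison.

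In mice on control water, no member passed the threshold between fast food and chow, where 0.577% of all genes did. Dmgdh, Sardh, Gnmt and Aldh7a1 had log2 fold changes of 0.73, 0.56, 0.51 and 0.47 with no overlap between the groups, and adjusted p-values of 0.0618 to 0.14 in edgeR. At an unadjusted p under 0.05, 4 members passed, against 11.5% of all genes, and the same number had groups that did not overlap, against 10.3%. DESeq2 called these 4 genes, with adjusted p-values of 0.000466 to 0.0288, and so did an edgeR fit to these 8 libraries alone (0.00436 to 0.0268). The shares of all genes called in these alternative fits are not given here. Without the 3 libraries of highest acute phase score, edgeR called Dmgdh (log2 fold change 0.82, adjusted p = 0.023). The median over the members was 0.35, against -0.02 over all genes.

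The antibiotic water went with large differences in chow-fed livers. There 9 of 10 members changed in edgeR, 8 higher and 1 lower, in a comparison where 23.8% of all genes were called, 10.6% higher and 13.2% lower. The groups did not overlap for 8 members, against 24.8% of all genes. Dmgdh rose 3.58-fold, Bhmt 2.28-fold, Gnmt 2.07-fold, Chka 2.06-fold and Mat1a 1.92-fold, and Chdh fell to 0.495 of its control-water level. The median log2 fold change was 0.72, against -0.01 over all genes. Leaving out chow control replicate 1 reduced the count to 6, and Chdh, Bhmt, Dmgdh, Gnmt and Mat1a kept their calls without any single library. Within the libraries of low rRNA-like share (2 per group) Dmgdh was 1.90 and Chdh -0.78 on the log2 scale, and 5 members were called. Within those of high share (2 per group) they were 1.80 and -1.25, and edgeR called no member and 3 genes in all, with 8 members at an unadjusted p under 0.05. The share of all genes at that unadjusted p is not given here for the high-share fit.

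After fast food, edgeR called no member between antibiotic and control water, where 5.99% of all genes were, and 2 had an unadjusted p under 0.05, against 26% of all genes. These were Mat1a, with a log2 fold change of 0.33 ± 0.14 (SE) and an adjusted p of 0.15, and Aldh7a1, at -0.32 ± 0.11 and 0.0779. For both, all 4 antibiotic libraries lay on the same side of the control libraries, which 18.4% of all genes did in either direction. DESeq2 called Aldh7a1 alone (adjusted p = 0.0157). The 95% intervals of the log2 difference ran from -0.34 to 0.35 for Chdh, from -0.39 to 0.49 for Dmgdh and from -0.54 to 0.52 for Bhmt.

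The interaction tests whether the meal difference itself depended on the water. It was called for 4 members in edgeR, against 3.94% of all genes (2.36% higher, 1.58% lower): Dmgdh at -1.79 ± 0.29 (SE, adjusted p = 0.00484), Gnmt at -1.17 ± 0.21 (0.00874), Chdh at 1.02 ± 0.22 (0.0219) and Pemt at -0.71 ± 0.19 (0.0456). Dmgdh and Gnmt were called in each of the 25 alternatives. The call for Pemt held in 8 of 25, and was lost in 12 of the 16 fits that leave out 1 library, all but those without fast food antibiotic replicate 2, chow antibiotic replicate 4 or chow control replicate 3 or 4 (-0.78 to -0.63, adjusted p = 0.0536 to 0.0984). The call for Chdh was lost without fast food antibiotic replicate 4 (0.96, adjusted p = 0.0547) or chow control replicate 1 (0.91, 0.0555). Sardh was called without fast food antibiotic replicate 2 (-0.60, 0.0495), Bhmt without chow antibiotic replicate 4 (-1.35, 0.0376) or chow control replicate 4 (-1.39, 0.0412), and Mat1a without chow control replicate 4 (-0.76, 0.0396). The count fell to 2 without fast food antibiotic replicate 4 or without chow control replicate 1, and was 6 without the 3 libraries named above, with Bhmt (-1.45, adjusted p = 0.0171) and Sardh (-0.65, 0.0484) added. A test for any difference among the 4 groups called all 10 members in edgeR, against 32.6% of all genes.

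**Figure D1:**
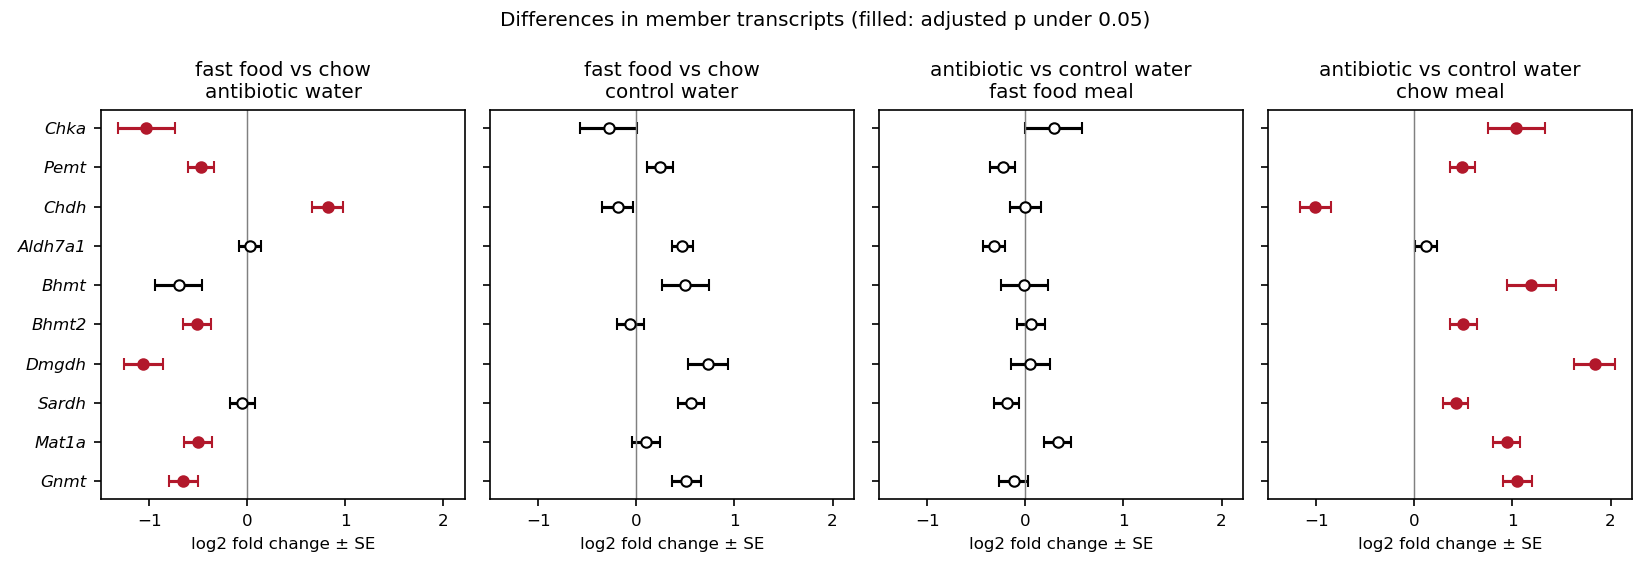
Log2 fold change ± SE of each member in the 4 comparisons, with filled red points for an adjusted p under 0.05 in edgeR (n = 4 libraries per group). The filled points fall in the outer panels, fast food against chow with antibiotic water (7 members) and antibiotic against control water with chow (9 members), with Chdh opposite in sign to the other called genes in both.

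In both comparisons with called members, the chow antibiotic group is the shared one, so they are not independent. The hepatocyte marker list moved in the same directions. In edgeR 5 of its 9 tested genes were lower after fast food than after chow with antibiotic water, and 5 of 9 were higher with antibiotic than with control water after chow, with none in the opposite direction. In that comparison of waters 7 of 8 Kupffer cell markers, 4 of 8 stellate cell markers and 2 of 7 sinusoidal endothelial markers were lower. In the meal comparison 3 of 8 stellate and 2 of 7 sinusoidal markers were higher, and no Kupffer marker changed. Of the smaller lists, 1 of 3 neutrophil markers was lower and 1 of 5 erythroid markers higher in the meal comparison. In the comparison of waters 1 of 5 cholangiocyte markers, 1 of 5 erythroid markers and the 1 lymphocyte marker tested were lower, and 1 of 2 exocrine pancreas markers was higher. The 6 exocrine pancreas markers summed to 4.58 to 16.7 CPM in fast food antibiotic livers, 16.6 to 24.9 CPM in chow antibiotic livers, 5.38 to 7.76 CPM in fast food control livers and 4.94 to 8.73 CPM in chow control livers. The part of these lists in the results was not tested. In bulk liver, fewer cells of a type and less RNA per cell cannot be told apart.

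Chka and Pemt lead to phosphatidylcholine. Chka (chr19:3851773-3894369, plus strand, GRCm38 as for all coordinates here) encodes choline kinase alpha, which phosphorylates choline as the first step of the CDP-choline route. It had 26, 32.1, 22 and 26.7 CPM in fast food antibiotic livers, 36.8, 56.4, 32.7 and 94.3 CPM in chow antibiotic livers, 15.5, 18, 24.3 and 29.4 CPM in fast food control livers and 27.7, 26.4, 20.2 and 31.8 CPM in chow control livers. All 4 chow antibiotic livers were above all other livers, with replicate 4 the highest. Chka was lower after fast food than after chow with antibiotic water (log2 fold change -1.03 ± 0.29, SE; edgeR adjusted p = 0.0306) and higher with antibiotic than with control water after chow (1.04 ± 0.29, adjusted p = 0.0175). Without chow antibiotic replicate 4, these were -0.68 (0.0641) and 0.69 (0.0392). The meal call was also lost without fast food antibiotic replicate 1, 3 or 4 or chow antibiotic replicate 2 (-1.02, -0.95, -1.03 and -1.03, adjusted p = 0.0639 to 0.0897). The water call was lost without chow control replicate 3 (0.93, 0.0578), and without the 3 libraries of highest acute phase score the second was 0.68 (0.0611).

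Pemt (chr11:59970614-60046489, minus strand) encodes the liver enzyme that makes phosphatidylcholine by methylating phosphatidylethanolamine, a heavy use of S-adenosylmethionine. It had 142, 169, 149 and 141 CPM in fast food antibiotic livers, 231, 224, 201 and 176 CPM in chow antibiotic livers, 207, 151, 169 and 176 CPM in fast food control livers and 125, 129, 180 and 160 CPM in chow control livers. The chow antibiotic livers lay above all the fast food antibiotic livers and overlapped both control-water groups. Pemt was lower after fast food with antibiotic water (log2 fold change -0.47 ± 0.13, edgeR adjusted p = 0.0302) and higher with antibiotic water after chow (0.49 ± 0.13, 0.0151). With control water its meal difference was 0.24 ± 0.13 (adjusted p = 0.537). The meal call with antibiotic water was lost without fast food antibiotic replicate 1, 3 or 4 or chow antibiotic replicate 1 or 2 (-0.47 to -0.44, adjusted p = 0.0589 to 0.0871), and the water call without chow control replicate 1 (0.41, 0.0536).

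Chdh and Aldh7a1 carry choline to betaine. Chdh (chr14:30009023-30040527, plus strand), choline dehydrogenase, oxidises choline to betaine aldehyde in mitochondria. It had 166, 106, 188 and 180 CPM in fast food antibiotic livers, 93.2, 79.1, 108 and 81.9 CPM in chow antibiotic livers, 175, 153, 160 and 151 CPM in fast food control livers and 221, 167, 167 and 177 CPM in chow control livers. The chow antibiotic livers were the lowest 4 but for fast food antibiotic replicate 2, whose 106 CPM fell just under the highest of them. Chdh rose after fast food with antibiotic water (log2 fold change 0.82 ± 0.16, edgeR adjusted p = 0.00554) and fell with antibiotic water after chow (-1.01 ± 0.16, 0.000387), and it was the 1 member called in the opposite direction to the others. With control water the meal difference was -0.19 ± 0.16 (adjusted p = 0.707).

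Aldh7a1, on chromosome 18, encodes an aldehyde dehydrogenase that turns betaine aldehyde into betaine and also takes part in lysine breakdown. It had 434, 357, 438 and 359 CPM in fast food antibiotic livers, 393, 437, 355 and 373 CPM in chow antibiotic livers, 525, 482, 496 and 478 CPM in fast food control livers and 338, 335, 369 and 391 CPM in chow control livers. Its highest 4 livers were the fast food control group, which overlapped no other group. No comparison of 2 groups was called in edgeR: the log2 fold change was 0.47 ± 0.11 for the meal in control water (adjusted p = 0.0618) and 0.12 ± 0.11 for the water after chow (0.429).

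**Figure D2:**
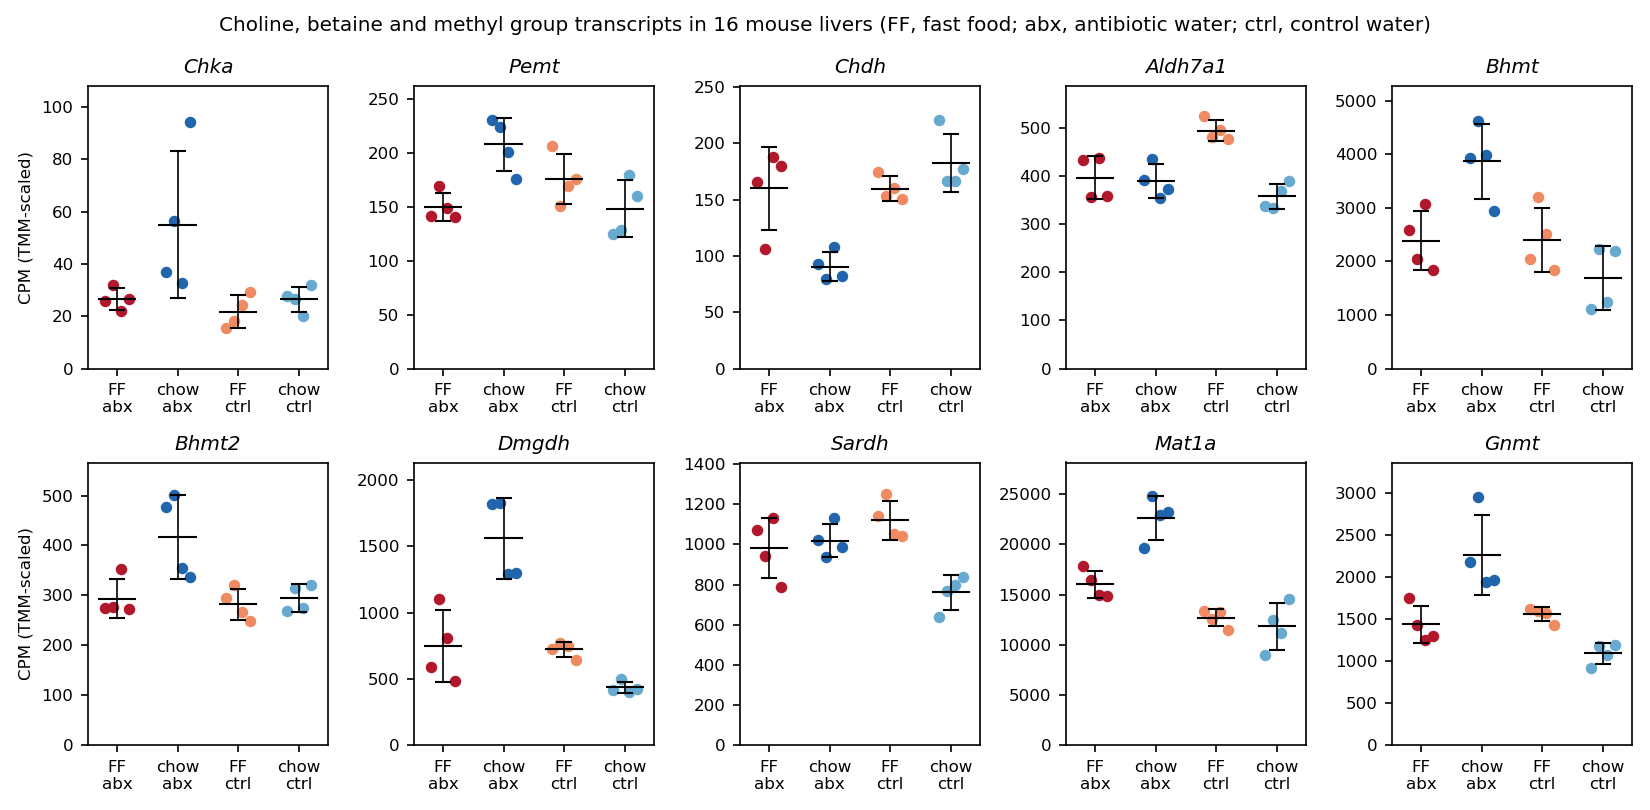
TMM-scaled CPM of each member in every library (points), with the group mean and SD (bars, n = 4). Chow antibiotic livers have the highest mean for 7 members and the lowest for Chdh (90.4 ± 12.9 CPM), while Aldh7a1 (495 ± 21.1 CPM) and Sardh (1120 ± 99.4 CPM) are highest in fast food control livers.

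Bhmt and Bhmt2 use methyl groups to remake methionine. Bhmt (chr13:93616675-93637961, minus strand) transfers a methyl group from betaine to homocysteine and leaves dimethylglycine. It had 2590, 2050, 3070 and 1840 CPM in fast food antibiotic livers, 3930, 4620, 3980 and 2940 CPM in chow antibiotic livers, 2040, 3200, 2520 and 1840 CPM in fast food control livers and 1120, 2230, 1240 and 2200 CPM in chow control livers. Chow antibiotic livers were above all chow control livers, and replicate 4 overlapped both fast food groups. Bhmt rose with antibiotic water after chow (log2 fold change 1.19 ± 0.25, edgeR adjusted p = 0.00272). After fast food with antibiotic water it had -0.70 ± 0.24 (adjusted p = 0.0664), which passed in DESeq2 (0.0292) and without the 3 libraries of highest acute phase score (-0.77, 0.0458), or without chow antibiotic replicate 4 alone (-0.84, 0.0458). Of the 50-base stretches of its main transcript, 59.6% occur in transcripts of other genes, among them the pseudogenes Bhmt-ps1 and Gm5096, which were not analysed here, so Bhmt counts depend on how reads with several matches were treated and are uncertain.

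Bhmt2 (chr13:93655720-93674302, minus strand) methylates homocysteine from S-methylmethionine. It had 274, 276, 352 and 272 CPM in fast food antibiotic livers, 476, 502, 355 and 336 CPM in chow antibiotic livers, 294, 320, 266 and 248 CPM in fast food control livers and 268, 315, 274 and 321 CPM in chow control livers. The chow antibiotic livers were above both control-water groups, and fast food antibiotic replicate 3 lay between chow antibiotic replicates 3 and 4. Bhmt2 was lower after fast food with antibiotic water (log2 fold change -0.51 ± 0.14, edgeR adjusted p = 0.0289) and higher with antibiotic water after chow (0.50 ± 0.14, 0.0175). The meal call was lost without fast food antibiotic replicate 1 or 4 or chow antibiotic replicate 1 or 2 (-0.48 to -0.41, adjusted p = 0.0591 to 0.0856). The water call was lost without chow antibiotic replicate 2 or chow control replicate 1 or 3 (0.41 to 0.47, adjusted p = 0.0526 to 0.0596). Of the 50-base stretches of its transcript 4.96% occur elsewhere, and 10 of them are shared with Bhmt. In the comparisons that share the chow antibiotic group, the log2 fold changes of Bhmt and Bhmt2 had the same sign, at -0.70 and -0.51 for the meal with antibiotic water, where Bhmt was not called (adjusted p = 0.0664 in edgeR), and 1.19 and 0.50 for the water after chow. In the others neither was called, at 0.50 and -0.06 for the meal with control water and -0.01 and 0.06 for the water after fast food. The log2 CPM of Bhmt minus that of Bhmt2, not corrected for length, was 2.76 to 3.24 in fast food antibiotic livers, 3.05 to 3.49 in chow antibiotic livers, 2.79 to 3.32 in fast food control livers and 2.06 to 2.82 in chow control livers.

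Dmgdh and Sardh act one after the other on what Bhmt leaves. Dmgdh (chr13:93674433-93752833, plus strand) encodes dimethylglycine dehydrogenase, which yields sarcosine, and its start is the one facing Bhmt2. It had 591, 1100, 809 and 481 CPM in fast food antibiotic livers, 1820, 1830, 1290 and 1300 CPM in chow antibiotic livers, 724, 771, 751 and 642 CPM in fast food control livers and 416, 496, 400 and 426 CPM in chow control livers. The chow antibiotic livers were above all other livers, and the fast food control livers were above all the chow control livers. Dmgdh was lower after fast food with antibiotic water (log2 fold change -1.06 ± 0.20, edgeR adjusted p = 0.00545), at 0.73 ± 0.20 (0.123) after fast food with control water, and higher with antibiotic water after chow (1.84 ± 0.21, 3.42e-05). In its group fast food antibiotic replicate 2 was the highest, and without the 3 libraries of highest acute phase score the first of these values was -1.42 (adjusted p = 4.7e-05).

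Sardh (chr2:27188393-27248337, minus strand), sarcosine dehydrogenase, turns sarcosine into glycine. It had 1070, 943, 1130 and 789 CPM in fast food antibiotic livers, 1020, 939, 1130 and 986 CPM in chow antibiotic livers, 1140, 1250, 1050 and 1040 CPM in fast food control livers and 637, 769, 800 and 840 CPM in chow control livers. The chow control livers were below both other groups they are compared with, and the remaining 3 groups overlapped. Sardh rose with antibiotic water after chow (log2 fold change 0.42 ± 0.13, edgeR adjusted p = 0.0255). It was at 0.56 ± 0.13 (0.0633) for the meal with control water and at -0.05 ± 0.13 (0.815) for the meal with antibiotic water. Its water call was lost without chow antibiotic replicate 3 (0.37, adjusted p = 0.0732) or chow control replicate 1 (0.34, 0.0848).

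Across the gene cluster of Bhmt, Bhmt2 and Dmgdh, the 3 genes were all higher in chow antibiotic than in chow control livers, by differing amounts. Bhmt2 and Dmgdh, whose starts face each other, did not keep a fixed ratio. The log2 CPM of Bhmt2 minus that of Dmgdh, not corrected for length, was -2 to -0.82 in fast food antibiotic livers, -1.95 to -1.86 in chow antibiotic livers, -1.5 to -1.27 in fast food control livers and -0.65 to -0.41 in chow control livers. The next coding gene, Arsb (chr13:93771630-93943016, plus strand), which encodes the lysosomal enzyme arylsulfatase B, was not called in any comparison. Its log2 fold change was 0.22 ± 0.18 (edgeR adjusted p = 0.416) for the meal with antibiotic water and -0.43 ± 0.18 (0.0832) for the water after chow, opposite in sign to the 3 members. Arsb is far less abundant, with at most 215 counts in a library, against up to 32683 for Dmgdh.

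**Figure D3:**
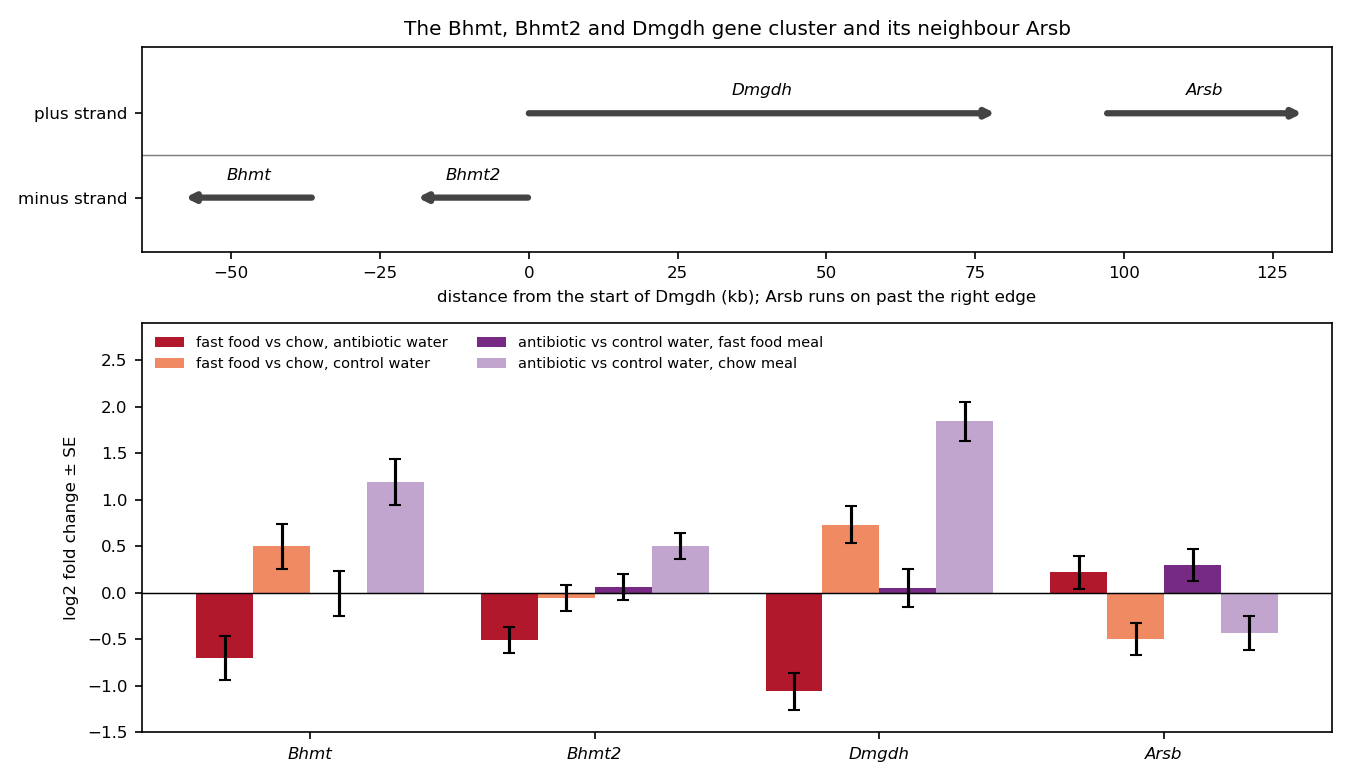
Top, positions and strands of Bhmt, Bhmt2, Dmgdh and Arsb in kb from the start of Dmgdh, with arrows in the direction of transcription. Bottom, log2 fold change ± SE of each gene in the 4 comparisons of 2 groups (n = 4 per group): Bhmt, Bhmt2 and Dmgdh have 1.19, 0.50 and 1.84 for antibiotic against control water after chow, while Arsb has -0.43.

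Mat1a and Gnmt make and consume S-adenosylmethionine. Mat1a (chr14:41105035-41124412, plus strand) encodes the methionine adenosyltransferase of adult liver. It had 17800, 16400, 15000 and 14900 CPM in fast food antibiotic livers, 19600, 24800, 22900 and 23200 CPM in chow antibiotic livers, 13400, 12600, 13300 and 11500 CPM in fast food control livers and 9010, 12500, 11200 and 14600 CPM in chow control livers. All 8 antibiotic livers were above all 8 control-water livers, and the chow antibiotic livers were above the rest. Mat1a was lower after fast food with antibiotic water (log2 fold change -0.50 ± 0.14, edgeR adjusted p = 0.0305) and higher with antibiotic water after chow (0.94 ± 0.14, 0.000323). After fast food the water difference was 0.33 ± 0.14 (0.15), and with control water the meal difference was 0.10 ± 0.14 (0.85). The meal call with antibiotic water was lost without fast food antibiotic replicate 3 or 4 or chow antibiotic replicate 2, 3 or 4 (-0.52 to -0.46, adjusted p = 0.0538 to 0.0845).

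Gnmt (chr17:46725664-46729168, minus strand), glycine N-methyltransferase, methylates glycine to sarcosine and so uses up S-adenosylmethionine. It had 1750, 1430, 1250 and 1300 CPM in fast food antibiotic livers, 2180, 2950, 1940 and 1960 CPM in chow antibiotic livers, 1620, 1590, 1570 and 1430 CPM in fast food control livers and 913, 1180, 1070 and 1190 CPM in chow control livers. The chow antibiotic livers were the highest 4 and the chow control livers the lowest 4, with both fast food groups between them. Gnmt was lower after fast food with antibiotic water (log2 fold change -0.65 ± 0.15, edgeR adjusted p = 0.0113) and higher with antibiotic water after chow (1.05 ± 0.15, 0.000198). Its meal difference with control water was 0.51 ± 0.15 (0.14).

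The counting's strand setting is not known, so reads of genes on the other strand whose exons overlap cannot be told apart from those of 6 members, Chdh, Aldh7a1, Dmgdh, Bhmt, Sardh and Chka. Cacna1d overlaps Chdh and had 22 to 84 counts per library, against 577 to 3650 for Chdh. Phax overlaps Aldh7a1 and had 125 to 524 counts, against 2630 to 9805 for Aldh7a1. AW495222 overlaps Dmgdh and had 1 to 45 counts, against 3878 to 32683 for Dmgdh. The other partners have no counts used here, so their reads were not compared. They are Gm15622 (187 exonic bases shared with Bhmt), Sardhos (188 with Sardh), Gm16066 and AC133523.2 (74 and 165 with Chka) and the pseudogene AC162035.3 (176 with Aldh7a1).

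Chdh and Dmgdh, at the entry of the oxidation route and after Bhmt, were the least alike of the 45 pairs of members, with a root mean square difference of 1.12 log2 units between their centred profiles over 16 libraries. The most alike pair was Aldh7a1 and Sardh, at 0.181, followed by Gnmt and Mat1a, at 0.222. The root mean square deviation of each gene itself was 0.203 for Aldh7a1, 0.253 for Sardh, 0.41 for Gnmt and 0.401 for Mat1a. Genes that vary little lie close by this measure. The log2 CPM of Chdh minus that of Dmgdh, not corrected for length, was -3.38 to -1.42 in fast food antibiotic livers, -4.53 to -3.59 in chow antibiotic livers, -2.34 to -2.04 in fast food control livers and -1.57 to -0.92 in chow control livers. The chow antibiotic, fast food control and chow control ranges did not overlap each other. Fast food antibiotic replicate 2, at -3.38, lay apart from replicates 1, 3 and 4, at -1.83, -2.1 and -1.42, and next to the chow antibiotic livers.

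**Figure D4:**
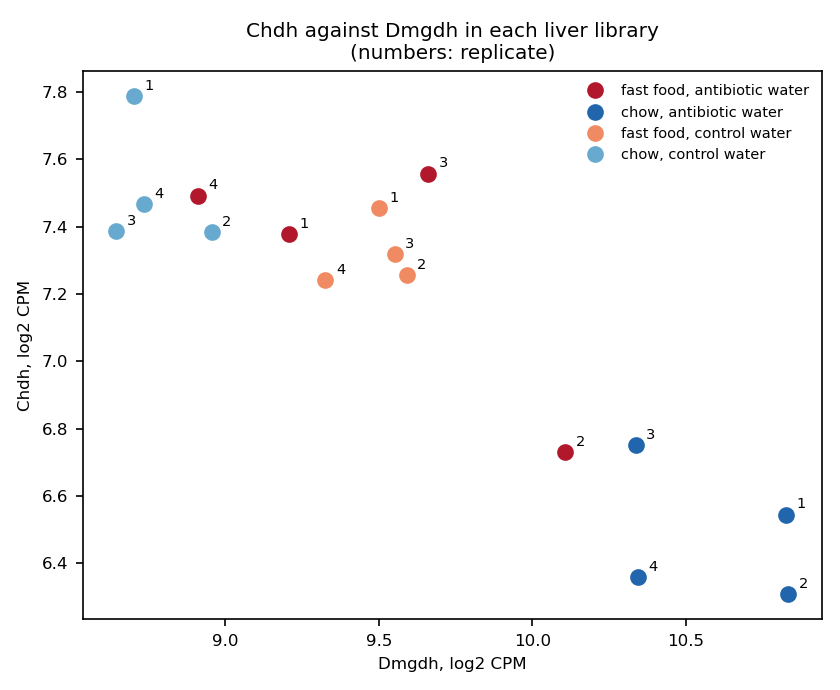
Chdh against Dmgdh in each library, both as log2 CPM, coloured by group and numbered by replicate. The 4 chow antibiotic livers sit at high Dmgdh and low Chdh together with fast food antibiotic replicate 2, and the other 11 libraries sit at Chdh levels of 151 to 221 CPM.

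The tested genes outside the set whose centred profiles were closest to each member were Rela and Nid1 for Chka (0.288 and 0.290 log2 units, over 16 libraries as for all that follow), Mcfd2 and Nsmce4a for Pemt (0.130 and 0.136), and Dop1b and Csk for Chdh (0.131 and 0.154). For Aldh7a1 they were Prodh2 and Sdha (0.0848 and 0.0919), for Bhmt Mpv17l and Aldh1l1 (0.285 and 0.293), and for Bhmt2 Pcmt1 and Slc10a1 (0.144 and 0.151). For Dmgdh they were Wfdc21 and Enpp2 (0.238 and 0.250), and for Sardh Mut and Slc27a5 (0.132 and 0.134). For Mat1a they were Cps1 and Apoa5 (0.141 and 0.145) and for Gnmt Apoa1 and Serpina1d (0.147 and 0.162). Each member's own root mean square deviation ran from 0.203 for Aldh7a1 to 0.706 for Dmgdh, and the distances are to be read against it.

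The wider pathway was read from 7 lists of 74 other genes, of which 69 were tested. Slc44a4, Slc44a5, Slc5a7, Pcyt1b and Aldh1l2 were not, with at most 14 counts in any library. With antibiotic water, 12 of 69 changed between fast food and chow in edgeR, 8 higher and 4 lower, or 17.4% against 13.7% of all genes. With control water none did, where 0.577% of all genes did. There 12 (17.4%) had an unadjusted p under 0.05, against 11.5% of all genes, and DESeq2 called 2. Between antibiotic and control water, 3 changed after fast food (1 higher, 2 lower), or 4.35% against 5.99% of all genes. After chow 26 changed (9 higher, 17 lower), or 37.7% against 23.8%. For the meal with antibiotic water and the water after fast food, the shares called were near those of all genes. The median log2 fold change of the 69 was 0.00 and -0.02 in the comparisons where 7 and 9 members changed, against -0.50 and 0.72 for the members. When each library was left out in turn, 3 of the 12, 1 of the 3 and 17 of the 26 calls held in every fit. Pla2g6 and Ahcy were among those that held for the meal with antibiotic water. Of the calls for that meal named below, Mthfs and Gamt held in 1 of 8 such fits. Flvcr2, Etnk2 and Ggh held in 2, Etnk1 in 4, Cbs and Aldh1l1 in 5 and Shmt2 in 6. For the water after fast food Mat2b and Nnmt held in 1 of 8. For the water after chow Fpgs held in 2 of 8, Chkb and Gpcpd1 in 5, Shmt2 in 6 and Etnk2 and Ahcyl1 in 7.

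Among 12 methionine cycle genes, 2 (16.7%) were lower after fast food with antibiotic water, where 13.7% of all genes were called and 5.87% were lower. Ahcy, which hydrolyses the S-adenosylhomocysteine left by methylation, averaged 433 ± 16.4 CPM in fast food antibiotic livers and 609 ± 42.1 CPM in chow antibiotic livers (SD, n = 4 each; edgeR adjusted p = 0.0119). Cbs, which commits homocysteine to cysteine synthesis, averaged 341 ± 27.8 and 469 ± 99.6 CPM in the same groups (0.0276). With antibiotic water after chow 4 of the 12 were higher and 1 lower, against 10.6% and 13.2% of all genes. Ahcy averaged 609 ± 42.1 CPM in chow antibiotic and 354 ± 40 CPM in chow control livers (0.000213), and Adk, which clears the adenosine that Ahcy releases, averaged 1280 ± 119 and 870 ± 55.8 CPM (0.00629). Ahcyl1 (0.39) and the methylthioadenosine phosphorylase gene Mtap (-0.51) also changed on the log2 scale, with adjusted p-values of 0.0164 and 0.00467. Mat2b, a regulatory subunit of the other methionine adenosyltransferase, was lower with antibiotic water after fast food, with 34.8 ± 2.9 and 46.8 ± 1.73 CPM in antibiotic and control livers (0.0479).

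Of 15 folate one-carbon genes tested, 2 were higher and 2 lower after fast food with antibiotic water, and 1 was higher and 3 lower with antibiotic water after chow. The shares over all genes were 7.78% higher and 5.87% lower for the meal, and 10.6% higher and 13.2% lower for the water. Aldh1l1, which oxidises formyltetrahydrofolate to tetrahydrofolate, averaged 1420 ± 307 CPM in fast food antibiotic and 2200 ± 261 CPM in chow antibiotic livers (edgeR adjusted p = 0.0196). In chow antibiotic livers it stood 1.44 ± 0.17 log2 units above chow control livers, which had 812 ± 152 CPM (3.64e-05). Shmt2, the mitochondrial serine hydroxymethyltransferase, moved the other way, at 0.44 ± 0.11 for the meal with antibiotic water (0.0171) and -0.39 ± 0.11 for the water after chow (0.0164). Mthfs (0.45) and Ggh (-0.74) also changed with the meal in antibiotic water (0.048 and 0.0469), and Fpgs (-0.44) changed with the water after chow (0.0455). None of 6 glycine and sarcosine genes was called in either comparison, where 2 and 0 had an unadjusted p under 0.05. The shares of all genes at that unadjusted p are not given here.

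With antibiotic water after chow, 3 of 9 choline and betaine carriers tested were lower and 1 was higher, in a comparison where 13.2% of all genes were lower and 10.6% higher. Slc44a3, a choline transporter-like gene, averaged 1.77 ± 0.813 CPM in chow antibiotic and 5.72 ± 1.27 CPM in chow control livers (edgeR adjusted p = 0.00208). Flvcr2 averaged 4.27 ± 1.74 and 11.3 ± 0.995 CPM (0.0105). Slc6a12, a betaine carrier, averaged 124 ± 11.4 CPM in chow antibiotic and 79.9 ± 11.8 CPM in chow control livers (0.00139). Of 8 genes of phospholipid turnover, grouped here under choline release, Pla2g6 (-1.05), Pnpla7 (-0.96) and Pld2 (-0.69) were lower and Gpcpd1 (1.29) was higher. Their edgeR adjusted p-values were 4e-04, 0.00966, 0.00733 and 0.0178. Not every enzyme of this group frees choline itself. After fast food with antibiotic water, Flvcr2 (1.38) and Pla2g6 (0.72) were higher than after chow (0.0255 and 0.0119).

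Of 11 other phospholipid synthesis genes tested, 4 were lower with antibiotic water after chow, and none was higher, against 13.2% lower and 10.6% higher over all genes. Selenoi, an ethanolamine phosphotransferase, averaged 63.7 ± 4.84 CPM in chow antibiotic and 102 ± 7.27 CPM in chow control livers (edgeR adjusted p = 0.00168). The ethanolamine kinases Etnk1 (-0.46, 0.00642) and Etnk2 (-0.67, 0.0152) and the second choline kinase, Chkb (-0.50, 0.0225), were lower as well on the log2 scale, while Chka was higher. Etnk1 (0.40, 0.0252) and Etnk2 (0.59, 0.044) were higher in the fast food than in the chow livers with antibiotic water.

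Of 8 other methyltransferases that use S-adenosylmethionine, 2 were higher and 3 lower with antibiotic water after chow, against 10.6% and 13.2% of all genes. Nnmt, which methylates nicotinamide, averaged 316 ± 98.4 CPM in chow antibiotic and 143 ± 32.6 CPM in chow control livers (edgeR adjusted p = 0.00229), and 301 ± 81.8 and 170 ± 14 CPM in the fast food groups on antibiotic and control water (0.0449). Gamt, of creatine synthesis, had log2 fold changes of 0.62 ± 0.20 for the meal with antibiotic water (0.0455) and -0.74 ± 0.20 for the water after chow (0.0124). Pcmt1 (0.50, 0.00238) was the other higher gene in that water comparison.

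The interaction was called for 5 of the 69 genes (7.25%, against 3.94% of all genes), 2 higher and 3 lower, among them Aldh1l1 at -1.25 ± 0.23 (edgeR adjusted p = 0.00934), Ahcy at -0.79 ± 0.16 (0.0152), Pla2g6 at 1.06 ± 0.23 (0.0212) and Slc6a12 at -0.68 ± 0.17 (0.032). Aldh1l1 and Ahcy kept the interaction call when any 1 of the 16 libraries was left out. Pla2g6 kept it in 13 of these 16 fits and Slc6a12 in 7.

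**Figure D5:**
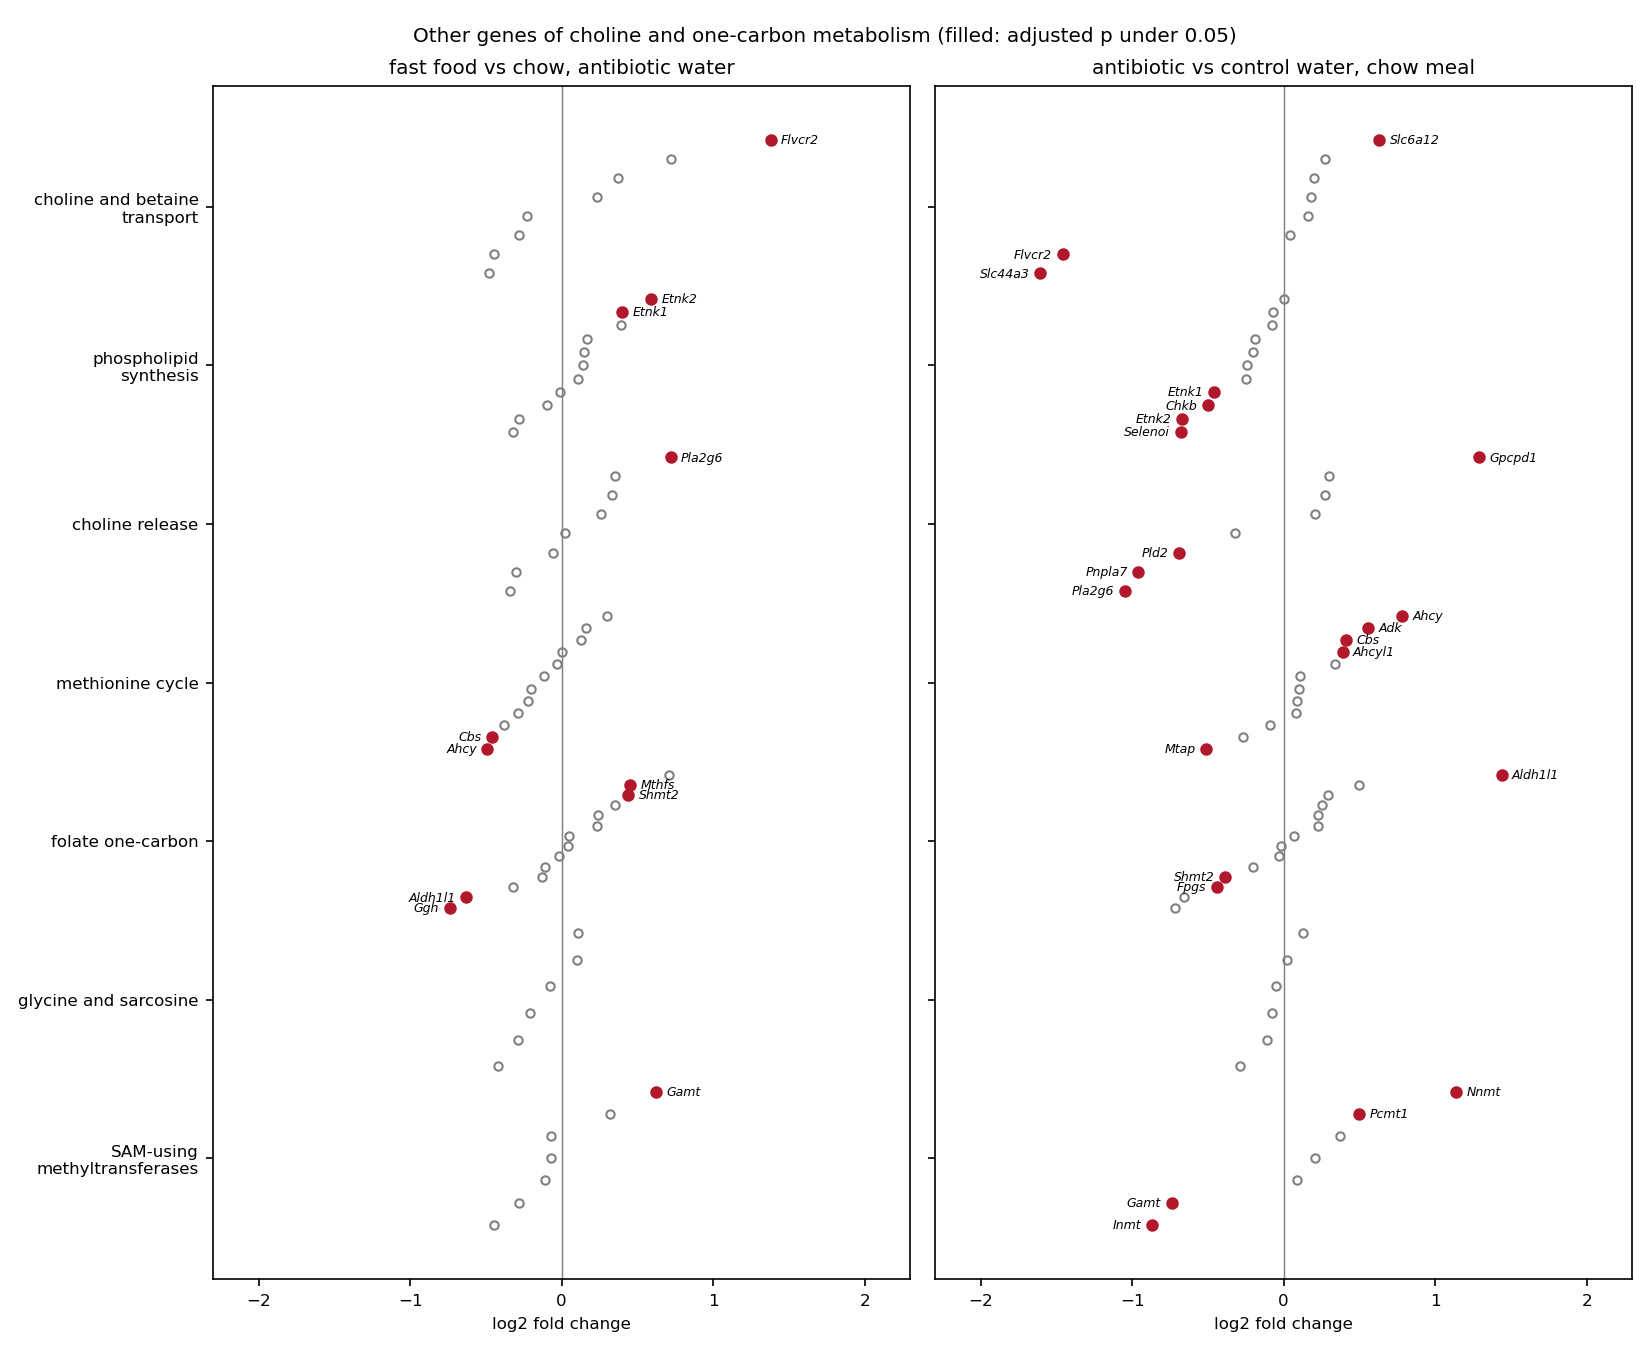
Log2 fold change of 66 of the 69 other pathway genes in 2 comparisons, by list, with filled red points and names for an adjusted p under 0.05 in edgeR (n = 4 per group). Left, fast food against chow with antibiotic water has 7 of the drawn genes higher and 4 lower. Right, antibiotic against control water after chow has 9 higher and 14 lower. The 3 genes not drawn are counted in the text, where the totals are 8 and 4, and 9 and 17.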

How the data were processed

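Poly(A) RNA of 16 mouse liver libraries, 4 in each of 4 groups by title, was read as single 50-base reads, per the labels' protocols. The deposited values are raw counts per gene, which the authors made with tools that the submitters' processing notes name as FastQC, cutadapt, STAR, HTSeq, DESeq2 and edgeR on GRCm38.p6, without versions. No source used here gives the annotation release, the strand setting or the handling of multiply matching reads. Of 25006 identifiers, 24942 matched a symbol in GENCODE M21. edgeR 4.0.16 in R 4.3.3 kept 13180 genes (filterByExpr, minimum count 10), scaled libraries by TMM and fitted a robust quasi-likelihood model of the 4 group means to all 16 libraries, with two-sided contrasts. Adjusted p-values are Benjamini-Hochberg over all tested genes, with a threshold of 0.05. The SE is the size of the log2 fold change over the root of F, and 95% intervals use the t quantile with 12 residual degrees of freedom. log2 CPM has a prior count of 2. The method was tested on simulated data.

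The members and lists were chosen with earlier results of these data known. All members were named in every comparison, with up to 4 called genes of lowest p from each list, the 2 genes nearest to each member (no predicted or clone names), and coding genes within 100 kb of the Bhmt cluster. A few genes taken by this rule are counted but not named or drawn here, a choice that did not use their values. Replicates of a group differed by at least 14.9 chi-square units per gene, so none is a repeat deposit. The alternatives were DESeq2 1.42.0, RLE factors, library totals alone, no filter, a mean of 10 counts per group, fits to the 2 groups compared, a replicate block and leaving out each library. Those added after seeing the data left out the 3 libraries of highest acute phase score, or used the rRNA-like share as a covariate, as a model term split at 1%, or to fit each side alone. Promoter windows are RefSeq's and coordinates are 1-based. Windows were used for 8 members, those of Aldh7a1 and Mat1a not being used here.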

Additional observations from a re-analysis of the deposited data

Results flagged for a closer look

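One group of libraries held a value far from the rest. Fast food antibiotic replicate 3 had 352 CPM of Bhmt2, while the other 3 libraries of that group had 272 to 276 CPM, and the gap was 0.943 of the group's range. This was the only such value among 40 groups of 4 screened (10 members in 4 groups), and chance gives about 1 in 20. Without that library the log2 fold change of Bhmt2 between fast food and chow with antibiotic water was -0.61 (edgeR adjusted p = 0.0286).

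The interaction of meal and water was called in edgeR for 4 members, against 3.94% of all genes. It was 1.02 on the log2 scale for Chdh (adjusted p = 0.0219), -1.79 for Dmgdh (0.00484), -1.17 for Gnmt (0.00874) and -0.71 for Pemt (0.0456). Of the 16 fits that leave out 1 library, the Pemt call held in 4 and the Chdh call in 14. Those of Dmgdh and Gnmt held in all 16.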

How the results depend on the processing

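The number of members called moved with the method. The share of all genes called, or at an unadjusted p under 0.05, is not given beside these counts. They therefore do not show a difference from the background. DESeq2 called 4 for the meal with control water, 1 for the water after fast food and 8 for the interaction, against 0, 0 and 4 in edgeR. Fits to the 2 groups compared gave 0 for the meal with antibiotic water (8 at an unadjusted p under 0.05) and 4 for the meal with control water. Library totals alone gave 4 for the meal with antibiotic water. They shifted the median of all genes to 0.24 there and to -0.25 for the water after chow. The members' median relative to it was -0.53 and 0.72, against -0.53 and 0.73 with TMM. New scaling factors move all genes by about the same amount, so this difference could hardly change and tests nothing. Without the 3 libraries of highest acute phase score 1 member was called for the meal with control water. The rRNA-like covariate left 2 interaction calls. The low-share libraries gave 1 call for the meal with control water and 5 for the water after chow, and the high-share libraries gave 0 for the meal with antibiotic water and 0 for the water after chow, each with 8 at an unadjusted p under 0.05. The causes were not tested. The one-sided fits also hold fewer libraries, and there a smaller number and the rRNA-like share cannot be told apart. Leaving out 1 library gave 3 to 7 calls for the meal with antibiotic water, 0 for the meal with control water and for the water after fast food, 6 to 9 for the water after chow, 2 to 6 for the interaction and 8 to 10 for any difference. None of the called genes reversed under any alternative run.

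Reversals were all of uncalled values. The largest of these in the main fit were Chka at 0.29 and Sardh at -0.19, both for the water after fast food. For the water after fast food, Chdh was -0.010 with DESeq2 and RLE factors, -0.011 with no filter, -0.005 with the mean count minimum, -0.025 with library totals, -0.017 with the replicate block and -0.085 to 0.15 with 1 library left out. Bhmt was 0.027 with the block, 0.037 without the 3 libraries, 0.25 with the covariate, 0.12 with the split term and -0.15 to 0.16 with 1 library out. Dmgdh was -0.023 with library totals, -0.23 without the 3 libraries and -0.21 to 0.21 with 1 out. Bhmt2 ran from -0.042 to 0.12 with 1 out, Sardh was 0.011 with the covariate, and Chka was -0.15 and -0.11 with the covariate and the split term. For the meal with antibiotic water, Sardh was 0.16 with library totals, 0.013 with the covariate and -0.13 to 0.04 with 1 out, and Aldh7a1 was -0.11 in the high-share libraries and -0.026 to 0.078 with 1 out. For the water after chow, Aldh7a1 was -0.13 with library totals and -0.029 in the low-share libraries. For the meal with control water, Mat1a was -0.022 in the low-share libraries and -0.004 to 0.24 with 1 out, and Bhmt2 ran from -0.13 to 0.001.

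Deviations of same-numbered libraries from their group means had correlations of -0.222 to 0.191. With 4 libraries per group these values cannot exclude pairing, and the labels do not say that the numbers pair libraries. With the replicate block, edgeR called 5 members for the meal with antibiotic water, 0 with control water, 0 for the water after fast food (4 and 1 at an unadjusted p under 0.05), 9 for the water after chow, 3 for the interaction and 10 for any difference. Of the 46 calls of other pathway genes, none reversed in any alternative. The lowest member count, 258, leaves counting error small beside the spread between libraries.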
